A study of Homo sapiens with 6 samples.

Results

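The semaphorins, plexins and neuropilins were taken as the protein-coding genes whose GENCODE symbol is SEMA followed by a class number from 3 to 7 and a letter, PLXN followed by a class letter and a number, or NRP1 or NRP2. The rule gave 31 of the 58884 genes in the deposited table, of which 20 are semaphorins, 9 are plexins and 2 are neuropilins. RNA was sequenced from DLD1 cells, an established human colorectal cancer line with a helical domain mutation in *PIK3CA*, and the question was which genes of this guidance family differ between parental cells and p85βKR-AA cells. In p85βKR-AA cells, K477A and R478A replace residues of the nuclear localization sequence of p85β, a regulatory PI3K subunit, on both alleles of *PIK3R2*, and the *PIK3CA* mutation is present in both genotypes. Each genotype has 3 libraries. The mutant line was made as independently derived clones, and the labels do not say which clone each library came from, so clone and genotype cannot be told apart.

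Semaphorins are secreted or membrane-bound ligands first known for steering growing axons. Plexins are their transmembrane receptors, and signal through a cytoplasmic domain that acts on Ras and Rap GTPases. Neuropilins are co-receptors that lack an enzymatic domain, bind most secreted class 3 semaphorins together with A-type plexins, and also bind vascular endothelial growth factors. In epithelia and their tumors, semaphorins and plexins take part in cell adhesion, migration and the signaling between tumor cells and vessels.

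Libraries held between 20301396 and 26712816 estimated counts. Levels are given as CPM, counts scaled to the TMM-normalized library size, and 3 counts were worth 0.185 to 0.218 CPM in parental libraries and 0.0818 to 0.109 CPM in p85βKR-AA libraries. Genes are called up-regulated or down-regulated at a fold change of at least 3 with an adjusted p under 0.01 (edgeR quasi-likelihood test, Benjamini-Hochberg over the 16059 genes tested). The deposited counts cannot show the K477A and R478A codons, so the genotype labels were not checked by them. The source field of p85βKR-AA replicates 2 and 3 names R479A and R480A, whereas their titles name R478A. The genotypes differed across most of the transcriptome. Of all genes tested, 28.6% were up-regulated and 17.6% down-regulated, the background for the marker counts here. Among colon epithelium markers, the summed level was 57233 to 79265 CPM in parental libraries and 8831 to 10336 CPM in mutant libraries. Most of that sum was *KRT8*, *KRT18* and *KRT19*, so it does not describe the list as a whole. Of 12 tested markers, 6 were down-regulated and 3 were up-regulated, namely *CDH1*, *CDH17* and *CEACAM5*. Fibroblast or mesenchyme markers summed to 28.4 to 30.9 CPM and 6330 to 7243 CPM, the latter mostly *FN1* and *VIM*. Of 9 tested markers, 5 were up-regulated, among them *FN1* and *VIM*, and 1, *TAGLN*, was down-regulated. Of the 5, *COL3A1*, *DCN* and *LUM* had 0 parental counts and passed the count filter through the mutant libraries. That count is thus no measure of fibroblast or mesenchyme markers as a set. *PDGFRA* was at 0 counts in every library and *COL1A2* at 0 in the mutant libraries, and *THY1*, *SPARC* and *FAP* had too few counts to be tested. Neuron markers summed to 1.3 to 2.11 CPM and 142.9 to 144.5 CPM, the latter mostly *NEFL* (mean 131.5 CPM). Of 9 markers, 4 were tested, and all 4 were up-regulated. These passed the count filter through the mutant libraries, as parental libraries held 0 counts of *NEFL* and *NEFM* and at most 12 of *SYT1* and 11 of *MAP2*. Their count is thus no measure of neuron markers as a set. *ELAVL4* and *DCX* were at 0 counts in every library, and *STMN2*, *SNAP25* and *RBFOX3* had too few counts to be tested. Endothelium markers summed to 12.2 to 15 CPM and 3.75 to 4.71 CPM, with 2 of 3 tested markers down-regulated, and blood markers summed to 54.8 to 66.7 CPM and 36.9 to 45.6 CPM with neither of 2 tested markers called. The part of these marker differences in the results for the guidance genes was not tested.

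Of the 31 genes, 27 had enough counts to be tested. Against a background of 28.6% of tested genes up-regulated and 17.6% down-regulated, 8 of the 27 were up-regulated in p85βKR-AA cells and 2 were down-regulated. The up-regulated share was near that background. The up-regulated genes were the secreted semaphorins *SEMA3A*, *SEMA3C*, *SEMA3D* and *SEMA3E*, the transmembrane semaphorins *SEMA5A* and *SEMA6A*, and the plexins *PLXNA2* and *PLXNB3*. The down-regulated genes were *SEMA3F* and *SEMA6B*. Without regard to fold, all mutant libraries lay above all parental libraries for 14 of the 27 and below them for 10 (47.0% and 36.5% of all genes, or 83.4% in either direction), and the genotypes overlapped for *SEMA4A*, *PLXNA1* and *PLXNB2*. At an adjusted p under 0.05 with no fold threshold, 14 members were higher and 8 lower (45.9% and 35.7% of all genes). The median log2 fold change over the tested members was 0.70, beside 0.32 over all genes tested. It was 1.24 over the 3757 tested genes within the members' length quartiles. With at least 10 counts in every library, the median over the 23 members left was -0.06. With library totals in place of TMM, the medians over members and over all genes were 1.61 and 1.24. Then 14 members were up-regulated and 1 down-regulated, and 43.9% and 6.06% of all genes were called. With per-library offsets that remove trends with transcript length and GC content, 7 members were up-regulated and 0 down-regulated, and 17.8% and 6.32% of all genes were called. *SEMA3A*, *SEMA3C*, *SEMA3D*, *SEMA3E*, *SEMA5A* and *PLXNB3* were up-regulated under each of the 3 scalings. In bulk RNA, fewer cells with a transcript and less of it in each cell cannot be told apart.

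**Figure D1:**
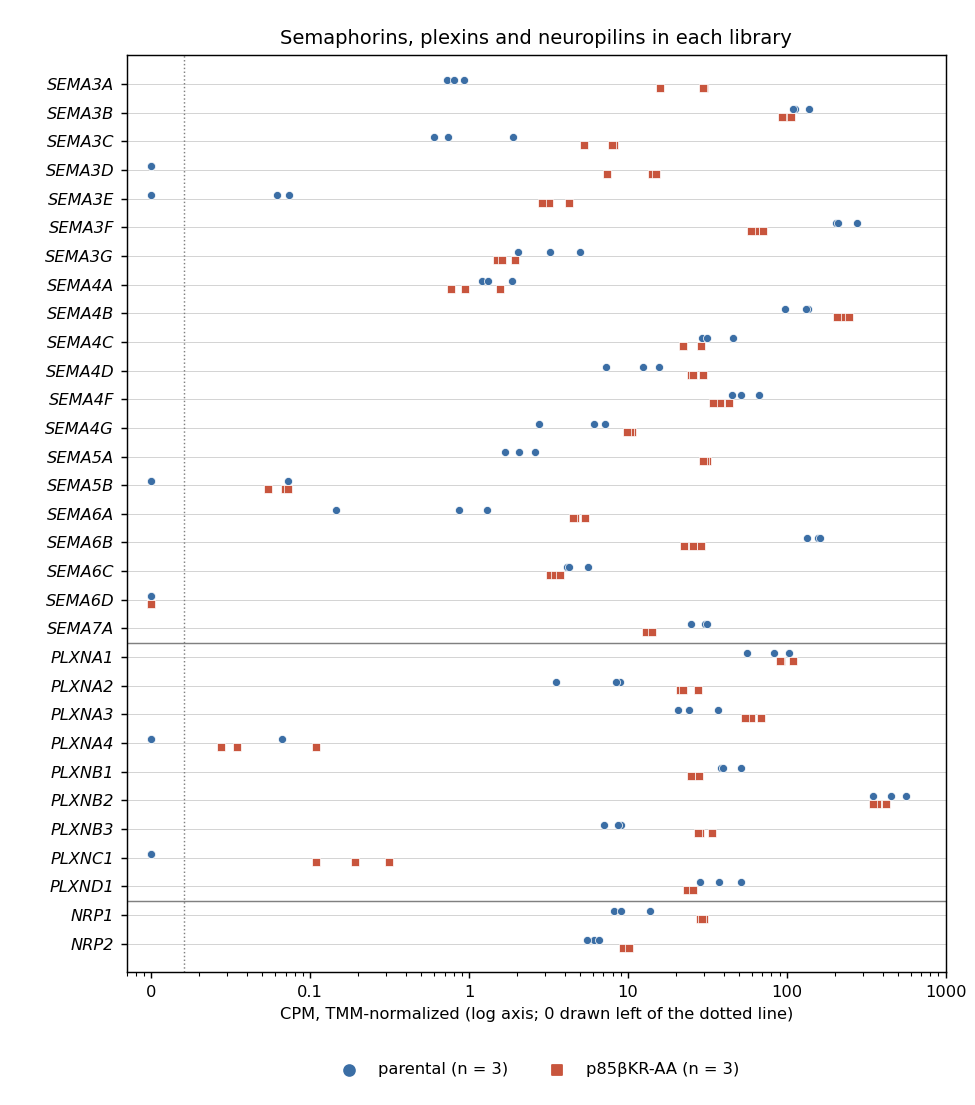
TMM-normalized CPM (log axis) of each of the 31 genes in the 3 parental (circles) and 3 p85βKR-AA (squares) libraries, with genes at 0 drawn left of the dotted line. *SEMA3D* sits at 0 in the parental libraries and between 7.4 and 14.9 CPM in the mutant libraries, and *SEMA6B* lies between 133.3 and 161.5 CPM in the parental libraries and below 29 CPM in the mutant libraries.

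With TMM scaling, the class 3 semaphorins, the secreted ligands of the family, differed by chromosome. The 4 genes on the long arm of chromosome 7 were all up-regulated, as they were with library totals and with the offsets. Of the 3 genes on the short arm of chromosome 3, *SEMA3F* was down-regulated and *SEMA3B* and *SEMA3G* were not called. Among all genes tested with TMM, 28.6% were up-regulated and 17.6% down-regulated. On chromosome 7 the log2 fold changes were 2.75 for *SEMA3C*, 4.93 for *SEMA3A* and 6.10 for *SEMA3E*, and at least 5.8 for *SEMA3D*. *SEMA3D* had 0 parental counts and *SEMA3E* had 2 in all, so both passed the count filter through the mutant libraries. On chromosome 3 they were -1.83 for *SEMA3F*, -1.04 for *SEMA3G* and -0.28 for *SEMA3B*. The chromosome 3 values depended on the scaling. *SEMA3F* was not called with library totals or with the offsets, and *SEMA3B* turned to 0.64 and 1.58 (log2). As the chromosome 7 genes were up-regulated together and *SEMA3F* was down-regulated, the 250 bases before their transcript starts are shown, from RefSeq on GRCh38.p14, 5′ to 3′ on the strand of the gene, with CG dinucleotides in capitals. RefSeq windows were found for 27 of the 31 genes, not for *NRP1*, *SEMA3A*, *SEMA6A* and *SEMA6B*. *SEMA3C* has 2 annotated starts with unlike windows, *SEMA3D* has 1 start, and the upstream starts of *SEMA3E* and *SEMA3F* are shown.
SEMA3C (upstream start, chr7:80922390-80922639, minus strand): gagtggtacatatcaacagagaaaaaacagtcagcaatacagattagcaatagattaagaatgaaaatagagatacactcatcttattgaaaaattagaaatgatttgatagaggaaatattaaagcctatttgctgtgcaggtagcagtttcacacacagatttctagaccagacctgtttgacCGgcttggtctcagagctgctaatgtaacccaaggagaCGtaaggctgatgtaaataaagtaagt
SEMA3C (downstream start, chr7:80919052-80919301, minus strand): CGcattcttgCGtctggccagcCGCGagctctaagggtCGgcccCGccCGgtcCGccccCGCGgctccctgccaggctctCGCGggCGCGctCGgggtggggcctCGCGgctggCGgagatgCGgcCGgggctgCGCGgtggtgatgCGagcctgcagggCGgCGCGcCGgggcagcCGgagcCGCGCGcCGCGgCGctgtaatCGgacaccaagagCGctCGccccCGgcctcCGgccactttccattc
SEMA3D (chr7:85187057-85187306, minus strand): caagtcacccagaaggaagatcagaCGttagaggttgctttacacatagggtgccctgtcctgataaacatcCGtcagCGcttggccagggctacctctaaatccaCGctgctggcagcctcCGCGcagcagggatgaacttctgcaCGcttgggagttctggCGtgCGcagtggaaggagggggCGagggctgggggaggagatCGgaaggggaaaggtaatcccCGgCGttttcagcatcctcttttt
SEMA3E (upstream start, chr7:83649140-83649389, minus strand): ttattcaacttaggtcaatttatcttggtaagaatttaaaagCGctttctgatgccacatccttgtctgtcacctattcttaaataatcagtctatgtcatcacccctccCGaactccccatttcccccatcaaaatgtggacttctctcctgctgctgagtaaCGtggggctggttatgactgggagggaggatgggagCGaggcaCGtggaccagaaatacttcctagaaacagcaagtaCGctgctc
SEMA3F (upstream start, chr3:50154808-50155057, plus strand): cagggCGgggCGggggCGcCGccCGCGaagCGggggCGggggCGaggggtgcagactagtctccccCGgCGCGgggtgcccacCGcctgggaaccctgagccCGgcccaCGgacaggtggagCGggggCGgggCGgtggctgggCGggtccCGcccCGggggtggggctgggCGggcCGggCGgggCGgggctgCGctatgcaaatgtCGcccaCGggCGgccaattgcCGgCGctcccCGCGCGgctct

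The upstream *SEMA3C* window held 2 CG dinucleotides and the downstream one 39, *SEMA3D* held 13, *SEMA3E* held 6 and *SEMA3F* held 34. The starts not shown held 1 for *SEMA3E*, and 42 and 2 for *SEMA3F*, so the starts of *SEMA3F* and of *SEMA3C* both covered CG-rich and CG-poor windows. Over all 35116 RefSeq windows the median was 11 (quartiles 3 to 23), and over the 48 windows of the 27 matched genes it was 15 (1 to 46). The windows of the up-regulated chromosome 7 genes therefore covered both CG-poor and CG-rich sequence. The letters GGGCGG, the core of the GC box, were found on either strand in 30 of the 48 member windows (62.5%, beside 42.6% of all windows), with 12 matches in the *SEMA3F* window, 3 in the downstream *SEMA3C* window and none in the other 3 windows shown. TATAAA was found in 1 member window (2.08%, beside 10.7% of all windows) and CACCTG, an E-box, in 6 (12.5%, beside 17.5%), among them the *SEMA3F* window. These matches describe letters and not bound sites.

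*SEMA3A* (ENSG00000075213, GRCh37 chr7:83585093-84122040, minus strand) encodes the collapsin that repels axons through neuropilin-1 and A-type plexins. It measured 0.731, 0.801 and 0.925 CPM in parental replicates 1, 2 and 3, and 29.9, 29.6 and 15.9 CPM in p85βKR-AA replicates 1, 2 and 3. The lowest mutant library lay well above the highest parental library. The mean rose from 0.819 ± 0.0986 to 25.1 ± 8.02 CPM (mean ± SD of 3 libraries, as for all means given here), a 30.4-fold change (log2 4.93, SE 0.32, adjusted p = 2.23e-08, and log2 3.97 with the offsets).

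*SEMA3D* (ENSG00000153993, chr7:84624869-84816372, minus strand), a ligand known from axon and vessel patterning, had 0 counts in each parental library and 14.2, 14.9 and 7.4 CPM in the mutant libraries. Set against 3 counts in a parental library, 0.218 CPM, its mutant mean of 12.2 ± 4.13 CPM was at least 55.7-fold higher (adjusted p = 1.86e-07). *SEMA3E* (ENSG00000170381, chr7:82992554-83278455, minus strand) is the class 3 semaphorin that binds plexin-D1 without a neuropilin. It measured 0, 0.0736 and 0.0617 CPM in parental libraries, which is 2 counts in all, and 3.2, 4.23 and 2.88 CPM in mutant libraries. Both genes thus went from at or near no counts to a level seen in every mutant library. For *SEMA3E* the ratio of summed counts was 76.8, with an exact 95% interval of 21.1 to 637 that covers counting error only (adjusted p = 3.16e-07). Its fitted log2 fold change was 6.10, and 4.15 with the offsets.

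*SEMA3C* (ENSG00000075223, chr7:80371854-80551675, minus strand), which acts through both neuropilins in heart outflow and neural crest development, measured 0.598, 1.89 and 0.74 CPM in parental libraries. The mutant libraries held 8.21, 7.97 and 5.25 CPM. Parental replicate 2 was the highest of its group and still lay below every mutant library. The mean rose from 1.08 ± 0.71 to 7.14 ± 1.65 CPM, a 6.74-fold change (log2 2.75, SE 0.37, adjusted p = 1.53e-05, and log2 2.18 with the offsets).

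Within the mutant group, replicate 3 was the lowest library for each chromosome 7 semaphorin. Its level was 53.4% of the mean of replicates 1 and 2 for *SEMA3A*, 50.9% for *SEMA3D*, 64.8% for *SEMA3C* and 77.7% for *SEMA3E*. For the chromosome 3 genes the same ratio was 112% for *SEMA3B*, 116% for *SEMA3F* and 92.9% for *SEMA3G*. Of all genes tested, 3.80% had mutant replicate 3 below 60% of both other mutant libraries, as had 6.77% of the up-regulated genes.

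On chromosome 3, *SEMA3F* (ENSG00000001617, chr3:50192478-50226508, plus strand), a neuropilin-2 ligand that restrains vessel growth and tumor cell spreading, measured 275.0, 204.0 and 210.3 CPM in parental libraries. It measured 63.0, 59.4 and 71.0 CPM in mutant libraries, with no overlap. The mean fell from 229.8 ± 39.3 to 64.5 ± 5.96 CPM, which is 3.57-fold lower (log2 -1.83, SE 0.15, adjusted p = 1.66e-07). It was not called down-regulated with library totals (log2 -0.91) or with the length and GC offsets (log2 -0.68).

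*SEMA3B* (ENSG00000012171, chr3:50304990-50314977, plus strand), which lies in a region often lost in tumors, measured 137.8, 113.0 and 109.1 CPM in parental libraries and 96.7, 92.6 and 106.3 CPM in mutant libraries. The highest mutant library came just under the lowest parental one. Its log2 fold change was -0.28 (SE 0.13, adjusted p = 0.0669), and it turned to 0.64 with library totals and 1.58 with the offsets, so no direction is given. *SEMA3G* (ENSG00000010319, chr3:52467051-52479119, minus strand), an endothelial ligand of neuropilin-2, measured 3.25, 2.04 and 5.0 CPM in parental and 1.5, 1.95 and 1.6 CPM in mutant libraries. Its log2 fold change of -1.04 (SE 0.32, adjusted p = 0.00944) did not reach the fold threshold, and was -0.12 with the offsets.

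The genes between the class 3 semaphorins were then read, a choice made after their values were seen. On chromosome 7, the span from *SEMA3C* to *SEMA3D* (chr7:80371854-84816372) holds 7 protein-coding genes, 4 of them semaphorins. *CACNA2D1*, a calcium channel subunit, had 0 parental counts and 5.29, 5.4 and 2.55 CPM in mutant libraries, and was up-regulated at least 20.2-fold against 3 counts (adjusted p = 2.01e-06). *PCLO*, a presynaptic scaffold, measured 0.399, 0.291 and 0.308 CPM against 0.546, 0.627 and 0.874 CPM. It was not called (log2 1.01, SE 0.43, adjusted p = 0.0466), but was up-regulated with library totals (log2 1.92) and down-regulated with the offsets (log2 -1.93, adjusted p = 0.00392), so no direction is given. *HGF*, which encodes the ligand of the MET receptor, had no counts in any library.

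The span from *SEMA3F* to *SEMA3B* (chr3:50192478-50314977) holds 5 protein-coding genes. *SLC38A3*, a glutamine transporter, measured 5.05, 4.01 and 4.2 CPM in parental and 1.23, 1.08 and 1.82 CPM in mutant libraries, and was down-regulated (log2 -1.69, SE 0.27, adjusted p = 8.43e-05). Like *SEMA3F*, it was not called with library totals (log2 -0.77) or with the offsets (log2 -0.59). *GNAI2*, an inhibitory G protein subunit, measured 278.9, 264.6 and 276.4 CPM against 165.0, 156.1 and 171.4 CPM, and was not called (log2 -0.74, SE 0.12, adjusted p = 7.03e-05). Its value turned to 0.19 with library totals and 0.57 with the offsets, so no direction is given. *GNAT1*, the rod transducin subunit, had too few counts to be tested.

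**Figure D2:**
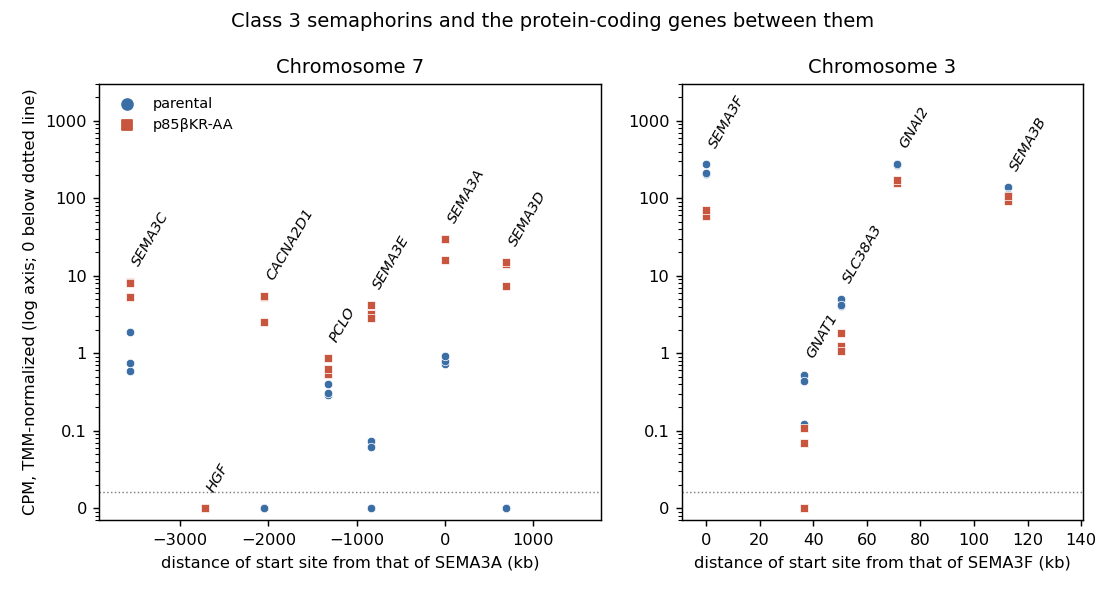
TMM-normalized CPM (log axis) of the class 3 semaphorins and the protein-coding genes between them on chromosomes 7 and 3, against the distance of each start site in kb from that of a reference semaphorin, for parental (circles) and p85βKR-AA (squares) libraries. Each chromosome 7 semaphorin has its 3 mutant libraries above its 3 parental libraries, while *HGF* stays at 0 counts in all of them.

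Of the transmembrane class 4 semaphorins, which signal mainly through B-type plexins, none of 6 was called, beside 46.2% of all genes tested. *SEMA4B*, the most abundant of them per length, measured 135.2, 97.5 and 132.3 CPM in parental and 224.2, 207.8 and 247.6 CPM in mutant libraries. All mutant libraries lay above all parental libraries, with a log2 fold change of 0.90 (SE 0.15, adjusted p = 0.000104), and it was up-regulated with library totals (log2 1.81) and with the offsets (log2 1.99). *SEMA4D*, the lymphocyte semaphorin CD100 that binds plexin-B1, measured 15.6, 7.28 and 12.5 CPM against 25.1, 25.6 and 29.6 CPM (log2 1.18, SE 0.23, adjusted p = 0.000456), and was up-regulated with library totals (log2 2.09).

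*SEMA4C*, a plexin-B2 ligand, measured 29.4 to 45.6 CPM in parental and 22.1 to 28.7 CPM in mutant libraries (log2 -0.54, SE 0.19, adjusted p = 0.019). *SEMA4F* measured 45.2 to 67.2 CPM and 34.4 to 43.0 CPM (log2 -0.51, SE 0.17, adjusted p = 0.013). The values of both turned above 0 with library totals (log2 0.38 and 0.41), and with the offsets they were 0.57 and -0.26. *SEMA4G* measured 2.74 to 7.2 CPM and 9.88 to 10.6 CPM (log2 0.93, SE 0.28, adjusted p = 0.00768), and was up-regulated with library totals (log2 1.84), with a log2 fold change of 1.53 under the offsets. It overlaps *MRPL43* on the opposite strand, which held 2075 mean counts against 81.7 for *SEMA4G* in parental libraries, and whether counting used strand is not given in the sources used here, so its values are uncertain. *SEMA4A*, an immune semaphorin, measured 1.2 to 1.85 CPM and 0.764 to 1.57 CPM, and its groups overlapped (log2 -0.43, SE 0.36, adjusted p = 0.284). Its value turned to 0.48 with library totals and 0.41 with the offsets.

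*SEMA5A* (ENSG00000112902, chr5:9035145-9546187, minus strand) carries thrombospondin repeats beside its semaphorin domain and binds plexin-B3. It measured 2.06, 1.67 and 2.59 CPM in parental libraries and 31.3, 30.4 and 29.5 CPM in mutant libraries, the tightest mutant values among the up-regulated semaphorins relative to their mean. The mean rose from 2.11 ± 0.46 to 30.4 ± 0.891 CPM, a 14.3-fold change (log2 3.84, SE 0.20, adjusted p = 7.43e-09), and log2 2.73 with the offsets. Its promoter window is CG-rich, with 33 CG dinucleotides and 7 GGGCGG matches. *SEMA5B*, the other class 5 gene, had 0, 1 and 0 parental counts and 2, 2 and 2 mutant counts, too few to be tested.

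*SEMA5A* is shown as the up-regulated gene outside class 3 with the lowest adjusted p, for comparison with the chromosome 7 windows.
SEMA5A (chr5:9546076-9546325, minus strand): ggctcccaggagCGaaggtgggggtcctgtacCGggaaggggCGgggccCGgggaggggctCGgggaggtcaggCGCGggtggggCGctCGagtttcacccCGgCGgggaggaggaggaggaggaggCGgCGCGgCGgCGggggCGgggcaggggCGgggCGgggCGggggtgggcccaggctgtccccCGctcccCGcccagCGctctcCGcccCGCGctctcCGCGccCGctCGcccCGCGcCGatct

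The class 6 semaphorins, transmembrane ligands of A-type plexins, moved in both directions. *SEMA6B* (ENSG00000167680, chr19:4542605-4581788, minus strand) measured 157.9, 161.5 and 133.3 CPM in parental libraries and 25.5, 22.6 and 28.8 CPM in mutant libraries. The mean fell from 150.9 ± 15.3 to 25.6 ± 3.09 CPM, 5.89-fold lower (log2 -2.56, SE 0.15, adjusted p = 1.05e-08), and it stayed down-regulated with library totals (log2 -1.63) but not with the offsets (log2 -1.12). *SEMA6B* showed the lowest log2 fold change of the 27 members tested.

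*SEMA6A* (ENSG00000092421, chr5:115779251-115910519, minus strand), a ligand of plexin-A2 and plexin-A4, measured 0.863, 0.146 and 1.3 CPM in parental libraries, which is 13, 2 and 21 counts. Mutant libraries held 4.66, 5.36 and 4.48 CPM, all above the parental ones. The mean rose from 0.768 ± 0.581 to 4.83 ± 0.466 CPM, a 6.09-fold change (log2 2.61, SE 0.41, adjusted p = 6.93e-05), and was not called with the offsets (log2 1.39, adjusted p = 0.00773). *SEMA6C* measured 4.15 to 5.58 CPM and 3.22 to 3.75 CPM (log2 -0.43, SE 0.22, adjusted p = 0.0908), which turned to 0.50 with library totals and 0.86 with the offsets, and *SEMA6D* had 0 counts in all 6 libraries.

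*SEMA7A*, the single GPI-anchored semaphorin, binds plexin-C1 and integrin β1. It measured 30.5, 24.9 and 31.6 CPM in parental and 13.7, 13 and 14.2 CPM in mutant libraries. The mutant libraries were all lower (log2 -1.09, SE 0.16, adjusted p = 3.73e-05), under the fold threshold, and the value was 0.13 with the offsets.

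Among the receptors, 2 of 9 tested were up-regulated and none was down-regulated, beside 28.6% and 17.6% of all genes, so the receptors called up were no larger a share than the background. *PLXNB3* (ENSG00000198753, chrX:153029651-153044801, plus strand), the receptor of semaphorin 5A, measured 9.02, 7.09 and 8.7 CPM in parental and 28.3, 27.5 and 33.9 CPM in mutant libraries. The mean rose from 8.27 ± 1.03 to 29.9 ± 3.46 CPM, a 3.61-fold change (log2 1.85, SE 0.18, adjusted p = 6.7e-07, and log2 2.32 with the offsets), with no overlap between the groups. It shares part of its span with *SRPK3* on the same strand, which held 15.3 and 22.5 mean counts in parental and mutant libraries. *PLXNB3* and *SEMA5A*, a known receptor and ligand, were both up-regulated, as were *PLXNA2* and its ligand *SEMA6A*. Other pairs named here went both ways with TMM. Log2 fold changes had opposite signs for *SEMA3E* (6.10) and *PLXND1* (-0.68), *SEMA4D* (1.18) and *PLXNB1* (-0.72), and *SEMA3F* (-1.83) and *NRP2* (0.70). They had the same sign for *SEMA3A* (4.93) and *NRP1* (1.5), *SEMA3C* (2.75) and both neuropilins, and *SEMA4C* (-0.54) and *PLXNB2* (-0.26). These signs depended on the scaling. *PLXND1* and *PLXNB1* turned to 0.23 and 0.20 with library totals, and *NRP1* and *NRP2* to -0.13 and -0.11 with the offsets.

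*PLXNA2* (ENSG00000076356, chr1:208195587-208417729, minus strand), a receptor of class 6 semaphorins and, with neuropilins, of class 3, measured 8.97, 3.5 and 8.45 CPM in parental and 21.4, 22.1 and 27.5 CPM in mutant libraries. The mean rose from 6.97 ± 3.02 to 23.7 ± 3.3 CPM, a 3.38-fold change (log2 1.76, SE 0.28, adjusted p = 7.29e-05). Parental replicate 2 was far below the other parental libraries, and without it the log2 fold change was 1.41 and *PLXNA2* was not called. It was also not called with the offsets (log2 0.69). Parental replicate 2 was the lowest parental library for each of the 9 tested receptors and for 20 of the 27 members, beside 34.2% of all genes tested.

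*NRP1* (chr10:33466420-33625190, minus strand), the co-receptor of semaphorin 3A and VEGF-A, measured 13.8, 8.16 and 9.01 CPM in parental and 30.1, 28.3 and 29.3 CPM in mutant libraries. The means were 10.3 ± 3.05 and 29.2 ± 0.937 CPM, 2.83-fold apart and just under the fold threshold (log2 1.5, SE 0.20, adjusted p = 1.64e-05). *NRP1* was up-regulated with library totals (log2 2.42) and without parental replicate 1 (log2 1.76), and its log2 fold change was -0.13 with the offsets. *NRP2* (chr2:206546714-206662857, plus strand), the co-receptor of semaphorin 3F and VEGF-C, measured 6.11, 5.53 and 6.6 CPM against 10.1, 9.26 and 10.2 CPM (log2 0.70, SE 0.19, adjusted p = 0.00388, and -0.11 with the offsets). Every mutant library was above every parental library for both neuropilins.

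Of the other A-type plexins, *PLXNA3* measured 37, 20.5 and 24.1 CPM in parental and 59.4, 54.3 and 68.3 CPM in mutant libraries (log2 1.16, SE 0.20, adjusted p = 0.000166), and was up-regulated with library totals (log2 2.08). It overlaps *LAGE3* on the opposite strand, which went from 1787 to 564 mean counts while *PLXNA3* went from 409.5 to 1871, so its values are uncertain where counting ignored strand. *PLXNA1*, the main class 3 receptor partner of the neuropilins, measured 103.4, 56.1 and 82.4 CPM and 92.4, 90.6 and 108.5 CPM, and its groups overlapped (log2 0.27, SE 0.19, adjusted p = 0.207). *PLXNA4* had 1, 0 and 0 parental and 1, 1 and 3 mutant counts and was not tested.

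*PLXNB2*, a receptor of class 4 semaphorins and angiogenin, was the most abundant plexin per length and measured 564.6, 347.7 and 451.2 CPM in parental and 371.6, 348.6 and 422.4 CPM in mutant libraries. The groups overlapped (log2 -0.26, SE 0.17, adjusted p = 0.174), and the sign changed under both other scalings (0.66 with library totals, 0.27 with the offsets). *PLXNB1*, the semaphorin 4D receptor, measured 38.7 to 51.4 CPM and 24.9 to 28 CPM (log2 -0.72, SE 0.16, adjusted p = 0.000909, and 0.20 with library totals). *PLXND1*, the semaphorin 3E receptor, measured 28.4 to 51.8 CPM and 23.5 to 25.7 CPM (log2 -0.68, SE 0.20, adjusted p = 0.00641, and 0.23 with library totals). *PLXNC1* had 0 parental counts and 0.192, 0.313 and 0.109 CPM in mutant libraries, a mean of 0.205 ± 0.103 CPM that lies under the 3 counts of a parental library, and no fold is given.

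**Figure D3:**
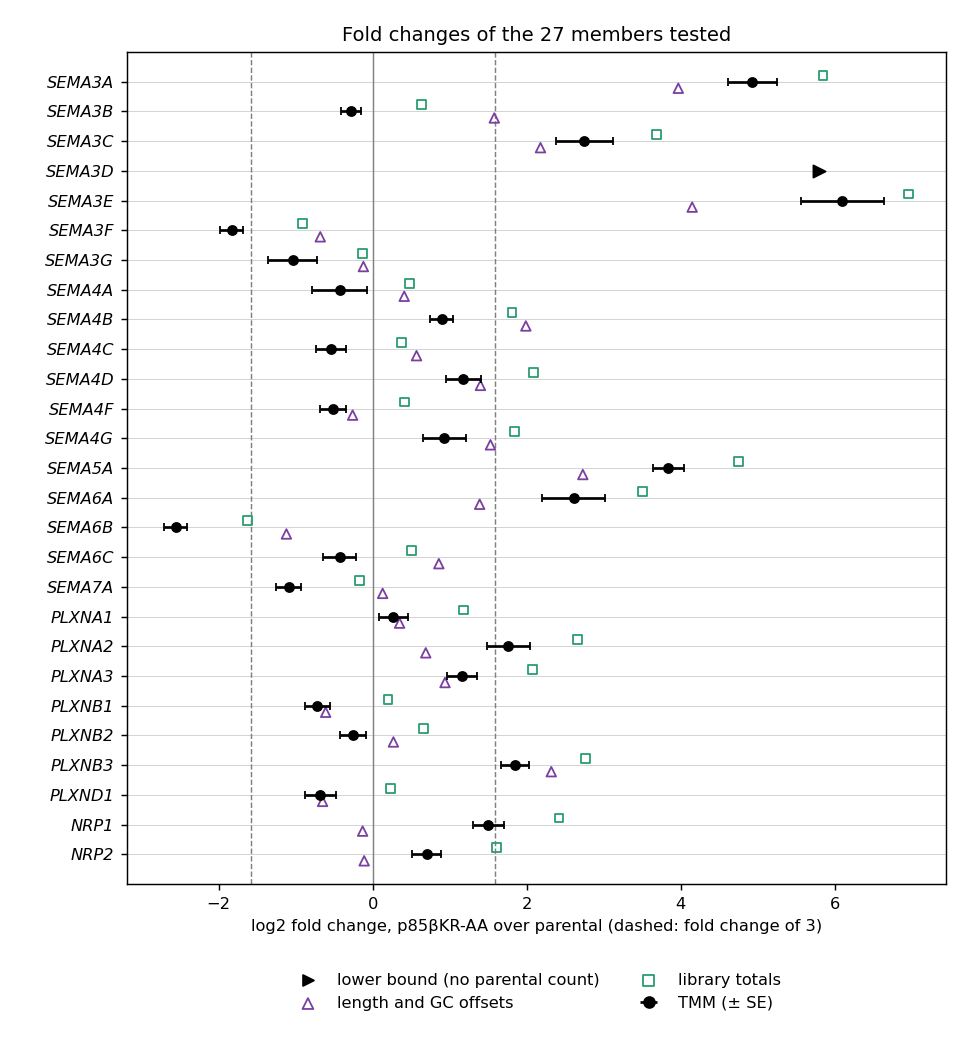
Log2 fold change of p85βKR-AA over parental for the 27 genes tested, with TMM (filled points, bars are SE; an arrow marks the lower bound of *SEMA3D*), with library totals (open squares) and with length and GC offsets (open triangles), and dashed lines at a fold change of 3. *SEMA3E* and *SEMA3A* lie farthest right among the genes with parental counts (log2 6.10 and 4.93) and *SEMA6B* farthest left (-2.56).

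The order of levels within the family was read per kilobase of gene length, as CPM per kb, since levels of different genes compare only per length. In parental cells *PLXNB2* had the highest mean, 71.2 ± 17 CPM per kb, followed by *SEMA3F* at 63.7 ± 10.9, *SEMA3B* at 52.3 ± 6.79, *SEMA6B* at 39.1 ± 3.97 and *SEMA4B* at 32.0 ± 5.51 CPM per kb. The library ranges of *PLXNB2* and *SEMA3F*, of *SEMA3F* and *SEMA3B*, and of *SEMA6B* and *SEMA4B* overlapped. Read within each library, *SEMA3F* was above *SEMA3B* in every parental library. The order of *PLXNB2* and *SEMA3F*, and of *SEMA6B* and *SEMA4B*, changed between parental libraries.

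In p85βKR-AA cells *PLXNB2*, at 59.7 ± 5.91 CPM per kb, and *SEMA4B*, at 59.5 ± 5.25, overlapped at the top, followed by *SEMA3B* at 43.0 ± 3.05 and *SEMA3F* at 17.9 ± 1.65 CPM per kb. *SEMA3A* had 0.321 ± 0.0387 CPM per kb in parental and 9.86 ± 3.15 in mutant cells, its mean standing 24th and 6th. Its library range overlapped those of its neighbors in both genotypes, and at 6.23 CPM per kb in mutant replicate 3 it lay below *SEMA4C*, *SEMA6B*, *SEMA4F*, *SEMA4D* and *PLXNA3* in that library. *SEMA6B* went from 4th to 8th by its mean, at 6.63 ± 0.80 CPM per kb, and overlapped its neighbors in mutant cells. The most abundant class 3 ligands per length were still *SEMA3B* and *SEMA3F* in both genotypes.

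**Figure D4:**
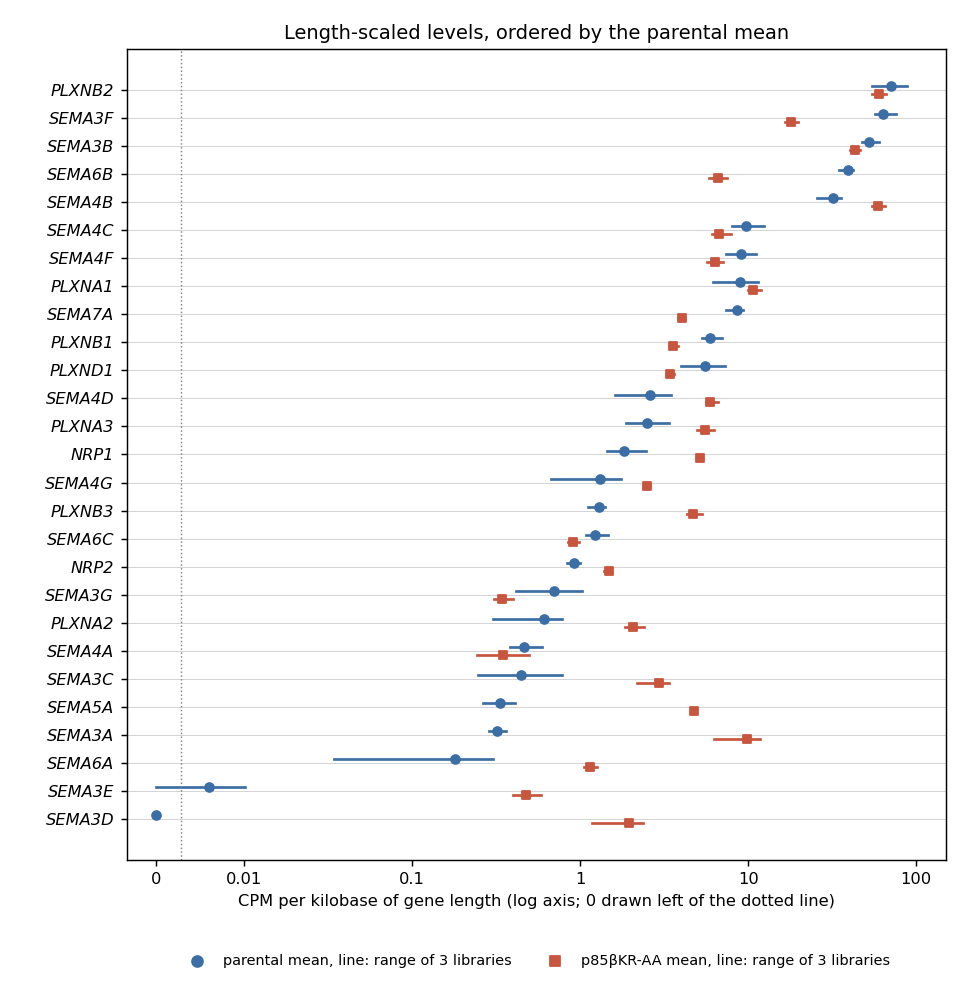
Level per gene length (CPM per kb, log axis) of 27 genes ordered by the parental mean, with parental means as circles, p85βKR-AA means as squares and lines for the range of 3 libraries. *PLXNB2* has the highest mean in both genotypes (71.2 and 59.7 CPM per kb), with a range that overlaps *SEMA3F* in parental and *SEMA4B* in mutant libraries. The mean of *SEMA3A* moves from 0.321 to 9.86 CPM per kb.

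Fold changes in these libraries varied with transcript composition. Over the 27 members, the Spearman correlation of log2 fold change with transcript GC content was -0.71 and with length 0.18, and over all genes tested it was -0.58 (15902 genes with a GC value) and 0.45. These are descriptions across genes that share the same 6 libraries. The chromosome 7 semaphorins have transcript GC contents of 41.0% to 46.1% and lie over 179.8 to 536.9 kb of genome, whereas *SEMA3F* and *SEMA3B* have 61.3% and 64.4% and lie over 34.0 and 9.99 kb. The members are also longer than most genes, with a median length of 4899 bases beside 2796. Among the 3757 tested genes within the members' length quartiles (3730 to 6522 bases), 42.8% were up-regulated and 5.48% down-regulated. The part of GC content and length in the members' fold changes cannot be told apart from genotype by these libraries.

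Other genes of the pathway were counted from lists of 21 co-receptors and other ligands or receptors, 7 processing enzymes and 35 cytoplasmic effectors. Of the 60 genes tested, 23 were up-regulated, 12 were down-regulated and 25 were not called, beside 28.6% and 17.6% of all genes. With the offsets, 11 were up-regulated and 4 down-regulated, beside 17.8% and 6.32% of all genes. The first list had 10 of 18 tested genes up-regulated and 2 down-regulated, with a median log2 fold change of 2.45. Among those 10, *NRCAM*, *CHL1*, *VEGFC*, *NCAM1*, *KDR* and *FLT4* had at most 3 counts in any parental library. They passed the count filter through the mutant libraries, so this count and median are no measure of the list. The same limit applies to the count over the 60 genes. *NRCAM* and *CHL1*, L1-family adhesion molecules that join neuropilins in class 3 receptors, had 0 parental counts. *NRCAM* measured 35.4, 39.2 and 28 CPM in mutant libraries, at least 157-fold above 3 counts (adjusted p = 6.77e-09), and *CHL1* 31.1, 32.3 and 17.8 CPM, at least 124-fold (adjusted p = 2.92e-08). *VEGFC*, a lymphatic growth factor that binds *NRP2*, also had 0 parental counts and measured 9.49, 9.44 and 8.71 CPM in mutant libraries, at least 42.3-fold (adjusted p = 2.88e-08).

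*ITGB1*, the β1 integrin that serves as a semaphorin 7A receptor, rose from 124.4 ± 34.0 to 395.6 ± 86 CPM (log2 1.67, SE 0.21, adjusted p = 9.21e-06, and 0.20, not called, with the offsets). The down-regulated genes were the neuropilin-binding growth factors *PGF*, at 20.9, 20 and 17 CPM against 1.96, 1.57 and 1.75 CPM (log2 -3.44, SE 0.21, adjusted p = 1.34e-08, and -0.74, not called, with the offsets), and *VEGFB*, at 68.0, 80.0 and 62.6 CPM against 17.3, 18 and 21.6 CPM. *VEGFB* had a log2 fold change of -1.89 (SE 0.16, adjusted p = 1.83e-07) that turned to 0.30 with the offsets and was -0.96, not called, with library totals. 

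Of the 7 enzymes that cut semaphorins or plexins, 3 were up-regulated and none was down-regulated, beside 28.6% and 17.6% of all genes. A list of 7 genes is too short to differ clearly from those shares. The proprotein convertase *PCSK5* rose from 2.5 ± 0.242 to 13.6 ± 1.52 CPM (log2 2.44, SE 0.21, adjusted p = 2.41e-07). The shedding metalloproteases *ADAM10* and *ADAM17* rose from 9.61 ± 0.999 to 51.8 ± 10.7 CPM (log2 2.43, SE 0.19, adjusted p = 1.16e-07) and from 13 ± 1.36 to 52.9 ± 1.05 CPM (log2 2.02, SE 0.15, adjusted p = 6.99e-08). With the offsets their values were 0.69, -0.31 and 0.44, so that none of them was called and *ADAM10* turned below 0. The other 4 enzymes, *PCSK6*, *FURIN*, *PCSK7* and *MMP14*, were not called, with log2 fold changes of 0.35, -0.54, -1.31 and -1.58. *MMP14* came just short of the fold threshold (adjusted p = 3.51e-06), and its value was -0.67 with library totals and -0.69 with the offsets. *FURIN*, which cleaves class 3 semaphorins, turned to 0.38 with library totals and 0.47 with the offsets.

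The 35 cytoplasmic effectors, which relay plexin signals to the cytoskeleton, had 10 up-regulated and 10 down-regulated genes and a median log2 fold change of -0.12. The up-regulated share was that of all genes tested, 28.6%, and the background going down was 17.6%. *ARHGEF12*, a guanine nucleotide exchange factor bound by B-type plexins, rose from 7.79 ± 2.46 to 90.6 ± 10.9 CPM (log2 3.53, SE 0.22, adjusted p = 1.88e-08). The actin regulator *EVL* rose from 3.40 ± 0.637 to 25.7 ± 2.23 CPM (log2 2.91, SE 0.20, adjusted p = 3.38e-08) and the Rac exchange factor *TIAM1* from 3.04 ± 0.337 to 21.4 ± 0.634 CPM (log2 2.81, SE 0.19, adjusted p = 3.04e-08). Genes with opposite changes include small GTPases that bind plexins.

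*RND2* fell from 3.25 ± 0.475 to 0.143 ± 0.0728 CPM (log2 -4.40, SE 0.40, adjusted p = 3.96e-07) and *RHOD* from 220.3 ± 44.4 to 12.5 ± 0.819 CPM (log2 -4.13, SE 0.17, adjusted p = 2.04e-09). *FES*, a tyrosine kinase that acts downstream of plexin-A1, fell from 20.1 ± 2.91 to 1.35 ± 0.191 CPM (log2 -3.90, SE 0.22, adjusted p = 9.63e-09). With the offsets, *ARHGEF12* (log2 0.84) and *TIAM1* (log2 1.40) were not called up-regulated, while *EVL* (4.26), *RND2* (-4.23), *RHOD* (-1.61) and *FES* (-2.35) kept their calls.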

How the data were processed

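RNA-seq libraries of DLD1 parental and p85βKR-AA cells (3 each) were used. Per the study's methods, libraries came from total RNA, SeqPrep and Sickle trimmed the read pairs, and levels were computed as FPKM. The submitters' processing notes name HISAT2 2.1.0, RSEM 1.3.1, DESeq2 1.24.0 and genome build hg18, without their roles. Strand use in counting is not given in the sources used here. The authors deposited estimated counts (expected counts, not normalized) for 58884 Ensembl genes with a gene length. The design assumed whole counts, so the estimated counts were rounded before testing.

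Symbols and GRCh37 positions came from GENCODE release 44 lifted to GRCh37 (56745 of 58884 identifiers matched, *PECAM1* not). The build behind the counts was not checked, so positions are those of the annotation. The test was edgeR's quasi-likelihood F test (edgeR 4.0.16, R 4.3.3) with genotype as the only term and TMM scaling, on the 16059 genes kept by filterByExpr (10 counts, total of 15), adjusted by Benjamini-Hochberg. SE was derived from the log2 fold change and F. The call thresholds follow the study's methods. Nothing says that replicates came from separate cultures, so p-values measure only the spread between these libraries, which may be technical. Replicates of each genotype differed by more than sampling noise (chi-square per degree of freedom 4.08 to 35.8). Floors and intervals cover counting error only. Folds against groups at 0 are bounds against 3 counts in the parental library where 3 counts are worth most.

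The members and lists were chosen with earlier results of these data known. Members called have full statistics and members not called their values or ranges. Of each pathway list, up to 3 called genes at each end of the fold changes with a mean of at least 1 CPM in either genotype are named. Alternatives were DESeq2 1.42.0, library totals, other filters, a replicate block, leaving out each library, other thresholds (adjusted p under 0.05 alone, or fold tested against 3), and per-library offsets for length and GC (robust splines with 5 degrees of freedom, MASS), which remove any relation with these properties whatever its source. The fits were tested on simulated data with few changed genes, balanced between the directions. The changes in the real libraries were many and uneven, so that test cannot speak to the scaling used here. Summaries and figures used Python 3.11.15 with pandas 2.3.3, NumPy 2.4.6, SciPy 1.17.1 and matplotlib 3.10.9. ChIP-seq was not analysed here.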

Additional observations from a re-analysis of the deposited data

How the results depend on the processing

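Of 347 single-gene comparisons over the 27 tested members, 316 kept their direction and their side of the thresholds, 9 passed the thresholds only under the alternative, 6 lost them and 16 changed sign, none of these through leaving out a library. With offsets for length and GC, signs changed for *NRP1* (-0.13), *NRP2* (-0.11), *PLXNB2* (0.27), *SEMA3B* (1.58), *SEMA4A* (0.41), *SEMA4C* (0.57), *SEMA6C* (0.86) and *SEMA7A* (0.13). With library totals they changed for *PLXNB1* (0.20), *PLXNB2* (0.66), *PLXND1* (0.23), *SEMA3B* (0.64), *SEMA4A* (0.48), *SEMA4C* (0.38), *SEMA4F* (0.41) and *SEMA6C* (0.50). Members up- and down-regulated (8 and 2) numbered 14 and 8 at an adjusted p under 0.05 alone (45.9% and 35.7% of all genes), 14 and 1 with library totals, 5 up with at least 10 counts in every library, 0 down with offsets, and 5 and 1 with the fold tested against 3. Over all genes (4597 and 2825) these numbers were 7373 and 5738, 7052 and 973, 2898 up, 2852 and 1015 with offsets, and 2974 and 1779. Semaphorins up-regulated (6) were 2 with at least 10 counts in every library, which leaves out *SEMA3C*, *SEMA3D*, *SEMA3E* and *SEMA6A*. Semaphorins down-regulated (2) were 6 at the looser p, 1 with totals, 0 with offsets and 1 against a fold of 3. Receptors up-regulated (2) were 5 at the looser p, 5 with totals, 1 with offsets, 0 against a fold of 3, and 1 to 3 without one library (1 without parental replicate 2, where *PLXNA2* was lost, and 3 without parental replicate 1, where *NRP1* was added), and 2 receptors were down-regulated at the looser p. Without one library at a time, members up-regulated numbered 7 to 9. Pathway genes (23 up, 12 down) were 15 up with at least 10 counts, 11 and 4 with offsets, 23 down at the looser p and 5 down with totals. Colon epithelium markers (3 and 6) were 1 and 1 with offsets. Fibroblast markers (5 and 1) were 8 up at the looser p, 8 with totals and 3 with at least 10 counts, and 0 down with offsets. Endothelium markers (0 and 2) were 1 and 1 with offsets, 0 down with totals and against a fold of 3, 1 down with at least 10 counts, and 0 to 1 up and 1 to 2 down without one library (parental replicates 1 and 3 and p85βKR-AA replicate 2). Neuron markers (4 up) were 0 with at least 10 counts. Blood markers (0 and 0) were 1 up with offsets and 1 down at the looser p. The median log2 fold change of the members (0.70) was 1.61 with totals, 0.95 without a filter and -0.06 with at least 10 counts. That of semaphorins (0.31) was 1.23, 0.94 and -0.24, and 1.40 with offsets, and that of receptors (0.70) 1.61 with totals, 1.17 without a filter and 0.27 with offsets. With totals, levels per kb in parental and mutant cells were 51.9 and 82.1 for *PLXNB2*, 46.3 and 24.6 for *SEMA3F*, 28.2 and 9.12 for *SEMA6B* and 38.0 and 59.2 for *SEMA3B*. The stricter filters test fewer genes. TMM factors were 0.677 to 0.777 in parental and 1.354 to 1.41 in mutant libraries. Library totals leave these factors out, and every tested member had a higher log2 fold change with them than with TMM. Why the factors differ by genotype, and the cause of the remaining changes, was not tested. Same-numbered libraries shared only a number, as their deviations correlated at -0.136, 0.119 and -0.0447. With the replicate number as a block, 8 members were up-regulated and 2 down-regulated, of 4626 and 2827 genes, and robust moderation with the block gave 8 and 2 of 4618 and 2823. The prior degrees of freedom were infinite in the block fits and without a filter, so single p-values from these are not given. Levels under 3 counts, as for *SEMA3E* and *PLXNC1* in each parental library and *SEMA6A* in parental replicate 2 (2 counts), are limited by depth.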
